A study of Arabidopsis thaliana with 24 samples.

Results

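Roots and rosettes of the Arabidopsis thaliana mutant rpt2-3a were compared for their response to sulfur deficiency, and for each gene whose response differed the organ that moved was recorded. The comparison used the 12 rpt2-3a arrays of 24 in the series. They form 4 groups of 3 arrays: roots at normal sulfur supply, roots at deficient supply, rosettes at normal supply and rosettes at deficient supply. The other 12 arrays hold the same 4 groups of Col-0, the reference accession. All plants stood in hydroponic culture for 5 weeks on complete medium in short days (8 h light, 16 h dark), and the deficient groups then spent 5 days on medium deficient in sulfur. The 3 arrays of each group are biological replicates according to the design text, which does not say how many plants each holds, so p-values measure the spread between these arrays. No label says how the rpt2-3a allele changes the gene.

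Plants take up sulfur as sulfate through the root and build it into cysteine, methionine, glutathione and, in Arabidopsis, glucosinolates, mostly in the leaves. When sulfate runs short, a set of marker genes is known to rise in both organs. RPT2 is an ATPase of the regulatory particle of the proteasome, the complex that degrades ubiquitinated proteins. Neither RPT2 gene is among the named features used here, so the genotype labels were not checked on the mutated gene.

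Each array gives 1 deposited log2 expression value for each of 28583 features, and a change below is the mean at deficient supply minus the mean at normal supply on that scale. The organ difference is the root change minus the rosette change, tested with limma across all features, and a feature passed at a Benjamini-Hochberg adjusted p under 0.05. Errors are standard errors (SE) of the fit. Organ markers followed the labels: RCA, the activase of Rubisco, lay at 10.82 to 10.92 on the 6 rosette arrays and at 3.37 to 4.55 on the 6 root arrays, while EXPA7, a root hair expansin, lay at 2.02 to 2.62 in rosettes and at 7.31 to 7.89 in roots. Of the listed markers, 4 of 7 for rosettes and 2 of 7 for roots were measured. Here and below a listed gene counts as measured when a feature carries it as its only gene. Listed genes were not looked for among features with several genes or no gene name. Among the root arrays, normal-supply replicate 2 had the highest value for all 4 rosette markers, with PSAE-1, a photosystem I subunit, at 4.74 against 2.37 to 3.2 on the other 5. Without that array 73 features passed the organ difference.

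The organ difference passed for 92 of 28583 features (0.322%). The root change was above the rosette change in 49 features (0.171%) and below it in 43 (0.15%). The differences that passed had a median size of 1.08 and ran from 0.62 to 2.48, and 62 were at least 2-fold. Some features carry the same values on every array, and the 92 hold 77 distinct profiles, 49 higher and 28 lower. Of the 92, 31 carry exactly 1 gene and stand for 29 genes, and 61 carry no gene name.

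In the root 86 features (0.301%) passed, 61 higher (0.213%) and 25 lower (0.0875%) at deficient supply. The rosette had 735 (2.57%), 379 higher (1.33%) and 356 lower (1.25%). Both organs had features in common: 12 passed in each, which is 14% of the root calls and 1.63% of the rosette calls. Of these, 10 moved in the same direction, 2 up and 8 down, and their organ differences did not pass. They were named after their values were seen. MSRB5, a methionine sulfoxide reductase, rose by 0.68 in roots and by 0.49 in rosettes. AT2G41640 fell by 0.67 and by 1.21, AT1G59865 fell by 0.85 in both organs, AT1G27100 fell by 0.50 and by 0.67, and AT5G24180 fell by 0.78 and by 0.62. Across the 28179 distinct profiles the root and rosette changes correlated with r = 0.10, given as a description since features are not independent.

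**Figure D1:**
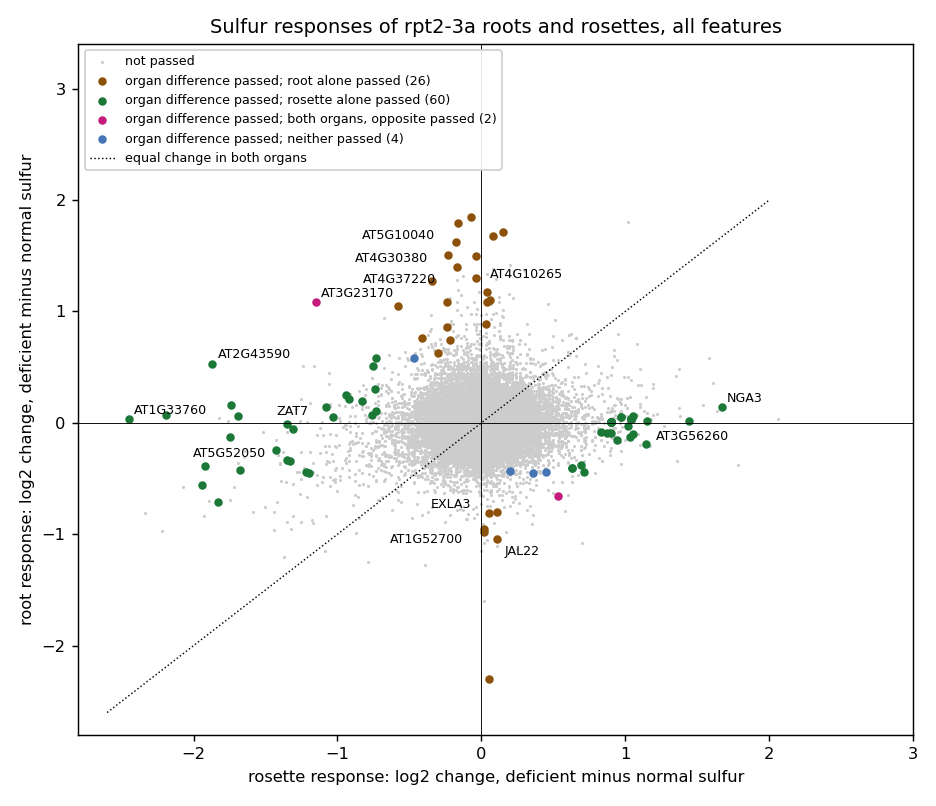
Log2 change in the root (vertical axis) against that in the rosette (horizontal axis) for all features of rpt2-3a, with the 92 features that passed the organ difference coloured by the organ that passed. The coloured points lie along the axes, 26 where the root alone passed and 60 where the rosette alone passed, with 2 in which both organs passed in opposite directions.

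Of the 92 features, 60 passed in the rosette alone and 26 in the root alone. Both organs passed in opposite directions in 2 features, neither organ passed in 4, and in 0 did both pass in the same direction. The adjustment ran separately for each organ, so with 735 rosette and 86 root calls the rosette threshold was looser. A rosette change of 0.53 ± 0.13 passed for WRKY47 (limma adjusted p = 0.042). A root change of 0.55 ± 0.12 did not for AT3G49960 (limma adjusted p = 0.086). The classes by organ partly reflect this and serve as a description. Among the 26 root features, 20 were higher and 6 lower in the root, with median root changes of 1.22 and -0.96 and median rosette changes of -0.16 and 0.05. Among the 60 rosette features, 27 fell and 33 rose in the rosette, with median rosette changes of -1.33 and 0.94 and median root changes of 0.05 and 0.01. The 33 risen rosette features hold 18 distinct profiles, since unnamed groups of 9 and 6 features each share 1 profile (rosette changes of 0.90 and 1.04). RNA of a whole organ was measured, so fewer cells of a type and less RNA per cell cannot be told apart in any of these changes.

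AT3G23170 was the 1 named gene in which both organs passed in opposite directions. It belongs to the core set of genes that rise in Arabidopsis seedlings under low oxygen. It read 5.5, 6.0 and 6.16 in roots at normal supply and 6.8, 6.88 and 7.22 at deficient supply. In rosettes it read 6.6, 6.78 and 6.65 at normal supply and 5.56, 5.57 and 5.44 at deficient supply. The supply groups did not overlap in either organ, and the order of supplies was inverted between them. The root rose 2.11-fold (change 1.08 ± 0.16, SE) and the rosette fell 2.22-fold (-1.15 ± 0.16), which gave an organ difference of 2.23 ± 0.22 (limma adjusted p = 0.0017).

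A further 3 hypoxia core genes passed the organ difference, all with a rise in the root and no passed change in the rosette. AT5G10040 (HUP9, a hypoxia response protein of unknown function) read 4.72, 4.75 and 5.14 in roots at normal supply and 6.37, 6.49 and 6.6 at deficient supply, against 2.47 to 2.85 on all 6 rosette arrays. Its root groups were well apart while its rosette groups overlapped. The root rose 3.07-fold, the rosette change was -0.18 ± 0.14, and the organ difference was 1.80 ± 0.19 (limma adjusted p = 0.0025). AT3G27220, a kelch-repeat protein gene, read 7.11, 7.47 and 7.53 in roots at normal supply and 8.24, 8.47 and 8.64 at deficient supply. Its rosette values lay at 4.49 to 4.55 at normal supply and at 4.2 to 4.43 at deficient supply, a change of -0.24 ± 0.13 that did not pass, and the organ difference was 1.32 ± 0.19 (limma adjusted p = 0.011). AT4G10265, a small gene of the wound-induced protein family, read 2.1, 2.56 and 2.46 in roots at normal supply and 3.6, 3.49 and 3.93 at deficient supply, against 1.49 to 1.85 in rosettes, with an organ difference of 1.34 ± 0.21 (limma adjusted p = 0.017). All 4 genes passed in each of the 12 fits that left out 1 array.

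The hypoxia core list has 50 loci, of which 25 were measured. Like the other lists it was chosen with earlier results of these data known, so its counts are no independent support. The organ difference passed for these 4, all with a higher root change (0.171% of all features) and 0 with a lower one, and the list's median organ difference was 0.57 against -0.01 over all features. In the root 7 of 25 rose, where 0.213% of all features did, and 0 fell (median 0.39). Beside the 4, the risen genes were AT2G17850 (1.13 ± 0.18), a rhodanese-family gene, AT4G33560 (0.98 ± 0.17) and AT5G66985 (0.82 ± 0.12). AT3G10040, which encodes HRA1, the trihelix factor that restrains the hypoxia response, had a root change of 0.98 ± 0.20 (limma adjusted p = 0.064) and did not pass. The root count was 4 without normal-supply root replicate 1 and 5 without normal-supply root replicate 2. In the rosette 0 rose and 2 fell, where 1.25% of all features fell (median -0.04): AT3G23170 and CML38, a calmodulin-like protein (-1.10 ± 0.18), whose root change was -0.11 ± 0.18. Root groups did not overlap, with deficient supply higher, in 15 of the 25, where 6.97% of all features did so.

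**Figure D2:**
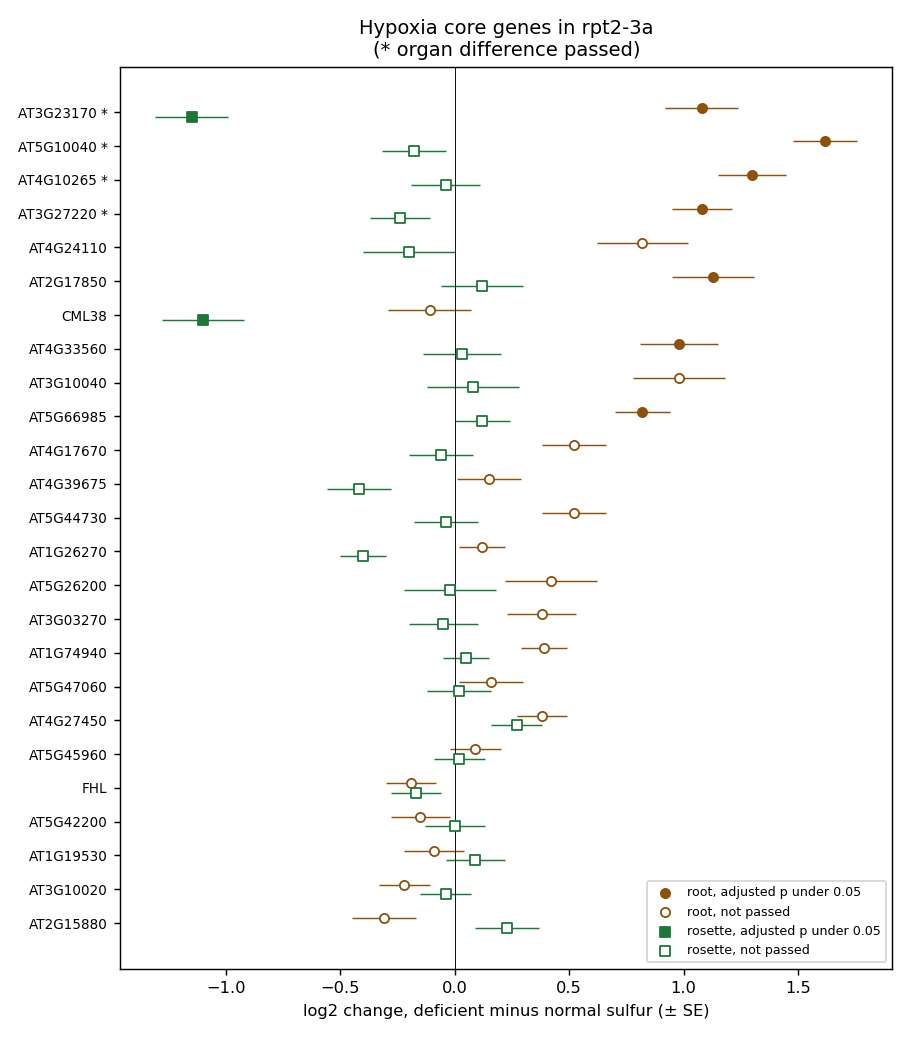
Log2 change with SE (horizontal axis) in roots (circles) and rosettes (squares) of rpt2-3a for the 25 measured hypoxia core genes, ordered by organ difference, filled where the adjusted p was under 0.05. The 7 filled root points lie between 0.82 and 1.62, and the 2 filled rosette points lie at -1.15 and -1.10.

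Other named genes rose in the root alone. AT4G37220, a cold acclimation protein of the WCOR413 family, read 3.18, 2.74 and 3.21 in roots at normal supply and 4.24, 4.44 and 4.64 at deficient supply, against 2.01 to 2.6 in rosettes, and its organ difference was 1.56 ± 0.22 (limma adjusted p = 0.013). AT4G30380 (EXLB2, annotated as expansin-like) read 2.92, 3.54 and 3.7 in roots at normal supply and 5.02, 5.01 and 4.65 at deficient supply, against 2.01 to 2.72 in rosettes, and its organ difference was 1.74 ± 0.29 (limma adjusted p = 0.026). AT4G19760, a chitinase-family gene of glycosyl hydrolase family GH18, read 5.43, 5.46 and 5.58 in roots at normal supply and 6.52, 6.72 and 6.47 at deficient supply, against 1.81 to 2.35 in rosettes, with an organ difference of 1.04 ± 0.19 (limma adjusted p = 0.042). In all of these the root groups were apart and the rosette groups overlapped. AT5G35525 (PCR3, of the plant cadmium resistance family), which fell outside the naming rule and was added after its values were seen, rose from 3.96 to 4.16 at normal supply to 4.96 to 5.55 at deficient supply in roots, with an organ difference of 1.14 ± 0.19 (limma adjusted p = 0.023).

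The named genes that fell in the root alone were JAL22, AT1G52700 and EXLA3. JAL22, a jacalin-related lectin, read 4.08, 3.92 and 4.15 in roots at normal supply and 2.86, 3.04 and 3.12 at deficient supply, and 3.08 to 3.37 on all rosette arrays. The root fell 2.06-fold while the rosette groups overlapped, and the organ difference was -1.16 ± 0.16 (limma adjusted p = 0.011). AT1G52700, an alpha/beta-hydrolase gene, read 4.32, 4.4 and 4.13 in roots at normal supply and 3.34, 3.35 and 3.23 at deficient supply, against 3.56 to 3.91 in rosettes, with an organ difference of -1.0 ± 0.16 (limma adjusted p = 0.02). EXLA3, an expansin-like gene, read 6.23, 6.16 and 6.01 in roots at normal supply and 5.2, 5.54 and 5.23 at deficient supply, against 1.93 to 2.18 in rosettes, with an organ difference of -0.86 ± 0.16 (limma adjusted p = 0.046).

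The strongest root fall belonged to an unnamed feature, 13412890. It read 7.79, 7.94 and 8.02 in roots at normal supply and 5.79, 5.65 and 5.41 at deficient supply, against 2.75 to 3.07 in rosettes. The root fell 4.92-fold, and the organ difference was -2.35 ± 0.18 (limma adjusted p = 0.00011). In Col-0 the same feature fell by 2.76 in roots, with a rosette change of -0.24.

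Low values were frequent in the rosette where the root alone moved. No detection call was used here, so a feature was called dim in an organ when both of its supply means lay under that organ's median value (4.51 in roots, 4.08 in rosettes). Of the 20 features that rose in the root alone 17 were dim in the rosette, and of the 6 that fell 5 were, where 48.9% of all features were dim in the rosette. Among the named genes these were AT5G10040, AT4G10265, AT4G37220, AT4G30380, AT4G19760, EXLA3, AT1G52700 and JAL22. AT5G35525, outside the naming rule, was dim in the rosette as well, with supply means of 2.2 and 2.24. AT4G10265, AT4G37220, AT1G52700 and JAL22 were dim in the root too. Where the rosette alone moved, 10 of the 27 fallen and 4 of the 33 risen features were dim in the root. Of all features 48.9% were dim in the root. Whether such features stood above background was not tested.

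Several genes that fell in the rosette alone belong to a list, written by hand, of genes known to react within minutes to wounding, touch or elicitors. AT1G33760 (ERF022, an AP2/ERF transcription factor) read 4.01, 5.18 and 5.14 in rosettes at normal supply and 2.14, 2.32 and 2.53 at deficient supply. On the 6 root arrays it lay between 1.87 and 2.11, with overlapping supply groups, and was dim there. The rosette fell 5.45-fold (-2.45 ± 0.24), the root change was 0.03 ± 0.24, and the organ difference was 2.48 ± 0.34 (limma adjusted p = 0.011), the largest among named genes.

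AT5G52050 (DTX50, a MATE transporter that exports abscisic acid) read 5.62, 5.34 and 5.27 in rosettes at normal supply and 3.88, 3.71 and 3.38 at deficient supply. Its roots read 4.74, 4.58 and 4.75 at normal supply and 4.48, 4.88 and 4.31 at deficient supply. The rosette groups were apart and the root groups overlapped. The rosette fell 3.37-fold and the organ difference was 1.62 ± 0.23 (limma adjusted p = 0.011). ZAT7, a C2H2 zinc finger factor, read 3.66, 3.32 and 3.68 in rosettes at normal supply and 2.18, 2.25 and 2.17 at deficient supply, against 1.8 to 2.26 in roots, and was dim in both organs (organ difference 1.34 ± 0.21, limma adjusted p = 0.02).

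The rapid wound, touch and elicitor list has 57 loci, of which 28 were measured. It too was chosen with earlier results of these data known, so its counts are a description. The organ difference passed for AT1G33760, AT5G52050 and ZAT7, all with a higher root change (0.171% of all features), and for 0 in the other direction. The 3 became 5 without normal-supply rosette replicate 3. The count became 2 without normal-supply rosette replicate 1, without deficient-supply rosette replicate 3 or without normal-supply root replicate 1. The list's median organ difference was 0.81 against -0.01 over all features. In the rosette 17 of 28 fell and 0 rose, where 1.25% of all features fell, and the median rosette change was -1.15. Rosette groups did not overlap, with deficient supply lower, in 22 of the 28, where 8.54% of all features did so. The count that fell stayed between 15 and 18 in the 12 fits that left out 1 array. AT4G27280, an EF-hand calcium sensor, fell by 2.07, AT4G29780 by 1.93, AT3G02840 by 1.69 and STZ, a zinc finger repressor of stress responses, by 1.36. In the root 1 of 28 fell, AT2G25735 (-0.80 ± 0.14), and 0 rose. This count was 0 in each of the 6 fits that left out a root array and with all 24 arrays in the fit. The median root change was -0.32 and only 3 of 28 root changes were above 0, where 46.9% of all features were. In 5 of 28 the root groups did not overlap with deficient supply lower, where 7.76% of all features did so. For most of the list the rosette fall did not pass as a difference between organs: AT4G27280 had an organ difference of 1.49 ± 0.51 (limma adjusted p = 0.27) and AT4G29780 one of 1.09 ± 0.37 (limma adjusted p = 0.27).

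**Figure D3:**
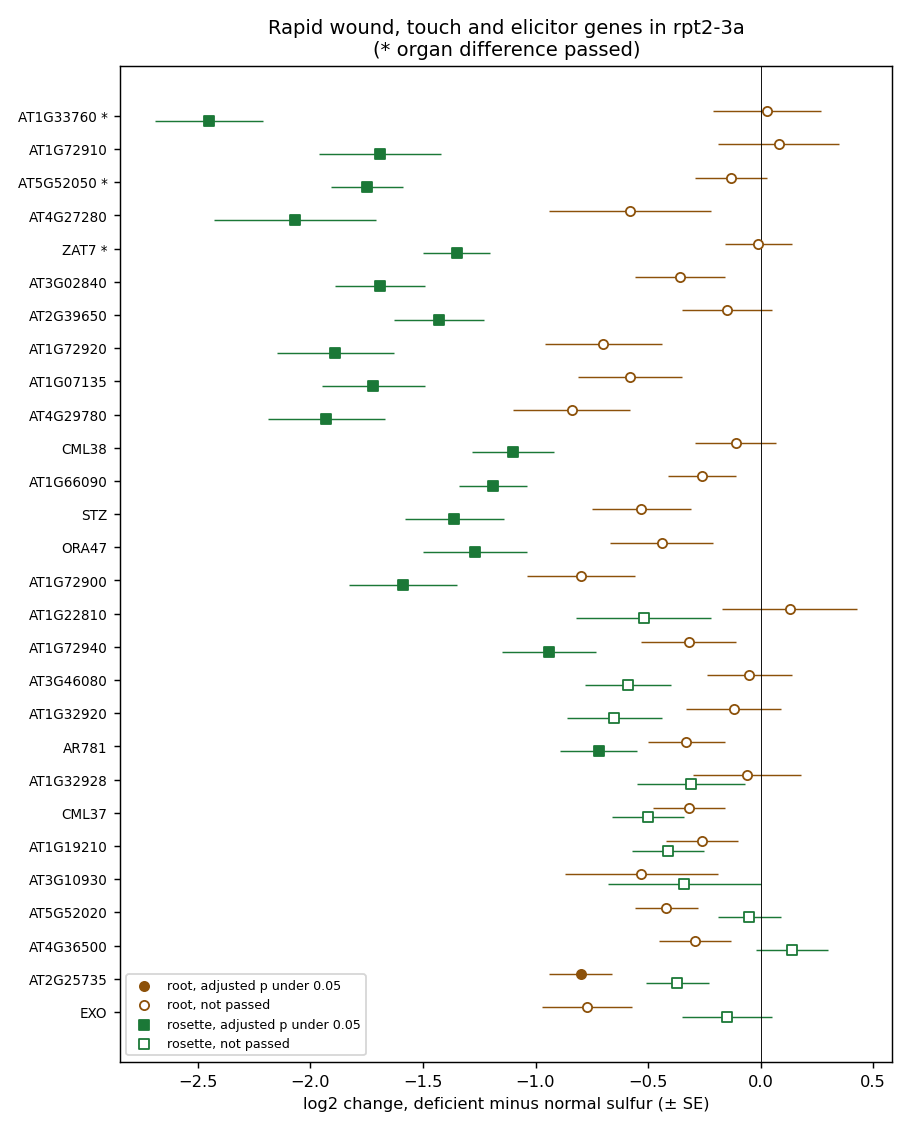
Log2 change with SE (horizontal axis) in roots (circles) and rosettes (squares) of rpt2-3a for the 28 measured rapid wound, touch and elicitor genes, ordered by organ difference, filled where the adjusted p was under 0.05. The 17 filled rosette points lie between -2.45 and -0.72, and 1 root point is filled, at -0.80.

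The TIR-domain list holds 10 loci picked by hand and does not cover the family. Their products are intracellular immune proteins or lack the other domains of such receptors. Of its 9 measured genes 7 fell in the rosette, where 1.25% of all features did, and 0 rose (median -1.04). Of the 7, 5 are also on the wound list. AT1G72920 fell by 1.89 and AT1G72910 by 1.69 in rosettes, with root changes of -0.70 ± 0.26 and 0.08 ± 0.27. None of the 9 passed the organ difference by limma. An unadjusted p under 0.05 was held by 6 of them and by 3288 of all 28583 features. With eBayes trend and robust 1 passed, as it did without deficient-supply rosette replicate 1 and without deficient-supply root replicate 1, and with dim features left out 2 of the 5 members tested passed. AT1G47370 (RBA1), a TIR-domain gene that is not on this list, passed the organ difference in the opposite direction and is described with the genes in which neither organ passed. The rosette count was 4 without normal-supply rosette replicate 1, without normal-supply rosette replicate 2 or without deficient-supply rosette replicate 3.

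Chitinases cleave the chitin of fungal walls. Of 19 measured chitinase and glucanase genes 2 passed the organ difference, both with a higher root change, as in 0.171% of all features (median 0.41). AT2G43590, a chitinase-family gene, read 7.56, 6.14 and 6.57 in rosettes at normal supply and 5.17, 4.97 and 4.52 at deficient supply, and in roots 7.52, 7.69 and 7.57 at normal supply and 7.84, 8.3 and 8.23 at deficient supply. Neither organ's groups overlapped. The rosette fell 3.66-fold, the root change of 0.53 ± 0.28 did not pass, and the organ difference was 2.40 ± 0.40 (limma adjusted p = 0.024). It was past the threshold in 6 of the 12 fits that left out 1 array. In the rosette CHI fell too (-1.24), with an organ difference of 1.75 (limma adjusted p = 0.052), and in the root AT4G19800 rose (1.38 ± 0.24, limma adjusted p = 0.027) beside AT4G19760. The organ difference of AT4G19760 passed in 1 of the 12 fits that left out 1 array and did not pass with all 24 arrays in the fit.

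NAXT1, a transporter that releases nitrate from cells, read 5.91, 5.89 and 5.67 in rosettes at normal supply and 5.0, 5.06 and 5.14 at deficient supply, against 8.87 to 9.1 on all root arrays. The rosette fell 1.69-fold, the root groups overlapped, and the organ difference was 0.83 ± 0.15 (limma adjusted p = 0.036). It was the 1 gene of 32 measured nutrient transporters to pass the organ difference, where 0.322% of all features did. SWEET16, a sugar transporter of the vacuole, rose in the rosette by 0.70. AT1G49450, a WD40-repeat protein gene, read 5.67, 5.49 and 5.34 in rosettes at normal supply and 4.61, 4.99 and 4.72 at deficient supply, and its root values rose from 6.34 to 6.79 up to 6.91 to 7.3 without passing (organ difference 1.31 ± 0.21, limma adjusted p = 0.023). AT1G61470, of the CAF1 family of deadenylases, read 4.3, 4.43 and 4.57 in rosettes at normal supply and 3.77, 3.24 and 3.46 at deficient supply (organ difference 1.19 ± 0.22, limma adjusted p = 0.046). AT3G09405 (PAE4, a pectin acetylesterase), outside the naming rule and added after its values were seen, read 4.39, 4.18 and 4.51 in rosettes at normal supply and 3.6, 3.12 and 3.26 at deficient supply, with an organ difference of 1.09 ± 0.21 just under the threshold (limma adjusted p = 0.05 after rounding).

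The genes that rose in the rosette alone were of varied kind. NGA3, a B3 transcription factor of the NGATHA family that acts in the shaping of lateral organs, read 2.13, 2.56 and 2.28 in rosettes at normal supply and 3.56, 4.33 and 4.08 at deficient supply, against 2.79 to 3.51 on all root arrays. The rosette rose 3.17-fold and the organ difference was -1.52 ± 0.29 (limma adjusted p = 0.05 after rounding). It was dim in both organs. AT3G56260 read 4.03, 4.08 and 4.16 in rosettes at normal supply and 5.31, 5.54 and 5.73 at deficient supply, against 1.82 to 2.45 in roots (organ difference -1.41 ± 0.23, limma adjusted p = 0.023).

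TBL26, of the trichome birefringence-like family whose members acetylate cell wall polymers, read 5.62, 5.19 and 5.79 in rosettes at normal supply and 6.46, 6.68 and 6.54 at deficient supply, against 2.41 to 2.73 in roots (organ difference -1.16 ± 0.20, limma adjusted p = 0.027). AT1G30320, a remorin-family gene, read 5.35, 5.32 and 5.39 in rosettes at normal supply and 6.37, 6.52 and 6.62 at deficient supply, with overlapping root groups at 5.23 to 5.78 (organ difference -1.13 ± 0.18, limma adjusted p = 0.023). AT5G52882, a nucleoside triphosphatase gene, read 6.18, 6.63 and 6.62 in rosettes at normal supply and 7.35, 7.53 and 7.71 at deficient supply, with roots at 7.93 to 8.1 (organ difference -1.0 ± 0.18, limma adjusted p = 0.042). Each of these features was above the organ's median in rosettes, and the rosette groups of each were apart.

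AT2G40230, an acyltransferase gene of the HXXXD family, read 3.82, 3.86 and 3.81 in rosettes at normal supply and 4.65, 4.89 and 4.66 at deficient supply, against 4.76 to 5.06 in roots (organ difference -0.99 ± 0.15, limma adjusted p = 0.014). Its normal-supply rosette values differed by at most 0.05, and the deficient rosettes rose 1.87-fold. AT5G10310 (EPFL1, a secreted peptide of the epidermal patterning factor family) read 5.46, 4.9 and 5.42 in rosettes at normal supply and 6.03, 6.04 and 5.84 at deficient supply, and 5.07, 4.79 and 4.69 against 4.27, 4.44 and 4.51 in roots. Its groups were apart in both organs in opposite order, the rosette rise passed, and the root change of -0.44 ± 0.15 did not (organ difference -1.15 ± 0.21, limma adjusted p = 0.043).

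AT3G51140 had 4 features that disagree. Of these, 3 passed the organ difference (-1.04, -0.93 and -0.93, the latter pair with identical values on all arrays), each with a rise in the rosette alone, and the 1 remaining feature had a difference of 0.00 ± 0.13. The feature with the difference of -1.04 read 5.86, 5.9 and 5.89 in rosettes at normal supply and 6.94, 6.95 and 6.81 at deficient supply. The assignment of these features to the gene is uncertain, and which of them measures it was not tested.

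Neither organ passed alone for AT1G54500 and AT1G47370, although their difference did. AT1G54500, a rubredoxin-like gene, read 3.18, 3.15 and 3.21 in roots at normal supply and 2.82, 2.76 and 2.68 at deficient supply, and 6.68, 6.76 and 6.71 against 6.94, 6.9 and 6.9 in rosettes (organ difference -0.62 ± 0.12, limma adjusted p = 0.048). It passed in 0 of the 12 fits that left out 1 array. AT1G47370 (RBA1, a TIR-only immune protein) read 2.61, 2.56 and 2.63 in roots at normal supply and 2.11, 2.26 and 2.09 at deficient supply, and 2.42, 2.15 and 2.3 against 2.7, 2.53 and 2.71 in rosettes, and was dim in both organs (organ difference -0.80 ± 0.14, limma adjusted p = 0.036). In both genes the supply groups were apart in each organ, in opposite order.

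**Figure D4:**
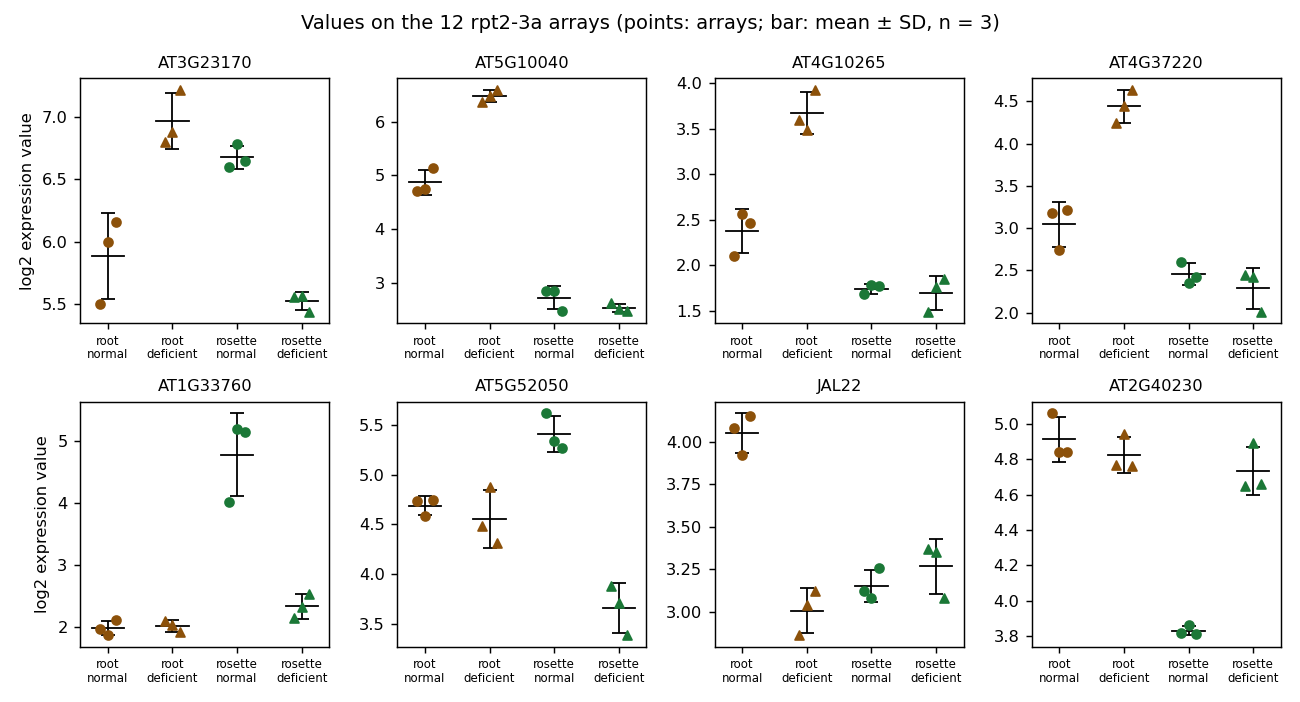
Log2 expression values on the 12 rpt2-3a arrays for 8 named genes, in roots (brown) and rosettes (green) at normal (circles) and deficient (triangles) sulfur supply, with bars for the mean ± SD of 3 arrays and a separate vertical scale in each panel. AT3G23170 moves in opposite directions in the organs, AT5G10040, AT4G10265, AT4G37220 and JAL22 move in roots, and AT1G33760, AT5G52050 and AT2G40230 move in rosettes.

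Few genes of sulfur metabolism had a feature that carried them as its only gene. Of 12 sulfur deficiency markers this held for 2. Whether the array measures the others through the 11079 features with no gene name or the 758 with several was not tested. SDI2 (AT1G04770), a gene induced by sulfur deficiency in wild-type plants, read 5.36, 5.81 and 5.18 in roots at normal supply and 5.76, 5.67 and 5.65 at deficient supply, with overlapping groups (change 0.24, limma adjusted p = 0.69). In rosettes it read 5.02, 5.06 and 4.77 at normal supply and 4.23, 4.35 and 4.12 at deficient supply, and this fall of 0.72 passed (limma adjusted p = 0.019). Its organ difference of 0.96 ± 0.21 did not pass (limma adjusted p = 0.078). BGLU28, a thioglucosidase, had changes of 0.56 in roots and 0.13 in rosettes that did not pass (organ difference 0.43 ± 0.33, limma adjusted p = 0.68). In Col-0 SDI2 rose by 1.13 ± 0.19 in roots (limma adjusted p = 0.0015) and changed by -0.49 ± 0.19 in rosettes, and BGLU28 rose by 2.11 ± 0.31 in roots and by 1.43 ± 0.31 in rosettes. The organ differences of the genotypes differed by -0.66 ± 0.38 for SDI2 and by -0.24 ± 0.61 for BGLU28, neither of which passed, and the response within an organ was not tested between genotypes here. Of 34 genes of sulfate uptake and assimilation 3 were measured and of 44 glucosinolate genes 5, and 0 of either passed the organ difference, the root response or the rosette response by limma. An unadjusted p under 0.05 for the organ difference was held by 0 and 1 of them, and by 3288 of all 28583 features.

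Photosynthesis genes had root changes below rosette changes in 10 of 10 measured members of 59, with differences from -0.67 to -0.26 (median -0.38). By limma 0 passed, while 3 had an unadjusted p under 0.05, as had 3288 of all 28583 features. The median change of the 10 genes was -0.33 in roots and 0.12 in rosettes. In 9 of the 10 the highest of the 6 root values was on normal-supply replicate 2, the array with the high rosette markers, and without it the median root change was -0.19. Rosette groups did not overlap, with deficient supply higher, in 6 of the 10, where 9.75% of all features did so. The part of that array in these differences was not tested.

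For comparison with the lists below, 0.322% of all features passed the organ difference, 0.301% the root response and 2.57% the rosette response. Among the wall-loosening expansins and xyloglucan enzymes, 2 of 34 measured genes passed the organ difference in opposite directions, AT4G30380 and EXLA3. Of 58 class III peroxidases 0 passed the organ difference by limma, with 11 at an unadjusted p under 0.05 (3288 of all 28583 features). In the root AT1G34510 rose (1.08, organ difference 1.13, limma adjusted p = 0.061) and in the rosette AT5G39580 fell (-0.75). Of 8 MATE transporters AT5G52050 passed, AT1G66760 rose in the rosette (0.93, organ difference -0.86, limma adjusted p = 0.057) and AT1G61890 fell in the root (-0.85). Of 20 CC-type glutaredoxins 0 passed the organ difference, and AT4G15700 rose in the rosette (0.97, organ difference -1.34, limma adjusted p = 0.057). Of 11 AP2/ERF factors AT1G33760 passed, and ORA47 fell in the rosette (-1.27). Of 9 clock and cold genes AT4G37220 passed, and COR27 rose in the rosette (0.67). Of 7 WRKY factors 0 passed the organ difference, with WRKY22 lower (-0.80) and WRKY47 higher (0.53) in the rosette. For the organ difference 5 of the 7 WRKY factors and 5 of the 20 glutaredoxins had an unadjusted p under 0.05 (3288 of all 28583 features).

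The remaining lists had 0 members past the organ difference by limma. Those with 1 gene past the threshold in an organ were the germin-like proteins (19 measured, AT5G38930 higher in the root by 0.78) and the cytokinin genes (2 measured, ARR15 higher in the rosette by 1.09). Among 5 measured jasmonate genes AT5G05600, a jasmonate oxidase, rose in the rosette by 0.92 and ORA47, listed here too, fell. Autophagy (11 measured), flavonoid (10), heat shock (7), iron deficiency (5), auxin response (21), cytochrome P450 (25), UDP-glycosyltransferase (55) and proteasome (2) genes, each read through its brightest feature, had 0 past the threshold in either organ. For the organ difference an unadjusted p under 0.05 was held by 3288 of all 28583 features. It was held by 7 UDP-glycosyltransferase, 4 flavonoid, 4 cytochrome P450, 2 auxin response and 1 iron deficiency gene and by 0 of the autophagy, heat shock and proteasome genes. Of the 19 germin-like proteins 5 held it, of the 5 jasmonate genes 1 and of the 2 cytokinin genes 1. A second feature of the glycosyltransferase UGT73C6, dimmer and therefore not counted, fell in the rosette (-0.63 ± 0.14, limma adjusted p = 0.028), beside -0.42 ± 0.13 (limma adjusted p = 0.14) in the feature counted. Of the 36 loci on the cytosolic ribosomal protein list, drawn up by gene symbol, 0 had a feature that carried the locus as its only gene. Ribosomal protein genes were therefore not examined here.

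Col-0 was then set beside rpt2-3a for the same organ difference. In Col-0 134 features passed (0.469%) in the fit of all 24 arrays, in which rpt2-3a had 114, 56 of them among the 92 of the 12-array fit. Of the 92 features of rpt2-3a 18 passed in Col-0 as well, which is 19.6% of the rpt2-3a calls and 13.4% of the Col-0 calls, all in the same direction, with the calls of each genotype taken from these different fits. In Col-0 74 of the 92 differences had the same sign as in rpt2-3a (59 of the 77 distinct profiles), and signed as in rpt2-3a the median was 1.08 in rpt2-3a and 0.30 in Col-0. The features were picked for passing in rpt2-3a, so its larger median is partly set by that choice.

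Genes that rose in rpt2-3a roots also passed in Col-0 roots in several cases, while AT3G23170, AT4G10265 and AT4G30380 did not pass there. The Col-0 root change was 0.64 ± 0.18 for AT4G10265 (limma adjusted p = 0.094) and 0.50 ± 0.19 for AT4G30380 (limma adjusted p = 0.33). AT5G10040 rose by 1.47 in Col-0 roots (organ difference 1.65 ± 0.18, limma adjusted p = 2.7e-05), AT3G27220 by 1.55 (1.56 ± 0.25, limma adjusted p = 0.0025) and AT4G37220 by 2.73 (2.61 ± 0.26, limma adjusted p = 7.3e-06). For AT3G23170 the Col-0 root change was 0.96 and the rosette change -0.61 (organ difference 1.57 ± 0.36, limma adjusted p = 0.052). The difference between genotypes was 0.15 ± 0.25 for AT5G10040, -0.24 ± 0.35 for AT3G27220, -1.05 ± 0.36 for AT4G37220 and 0.66 ± 0.51 for AT3G23170, and none of them passed. AT5G52882 rose by 1.01 in Col-0 rosettes, against 1.05 in rpt2-3a, and NGA3 by 1.12 against 1.67. AT3G10040 (HRA1), which did not pass in rpt2-3a roots, rose by 2.41 ± 0.26 in Col-0 roots (limma adjusted p = 8e-06). Its organ difference differed between genotypes by -1.67 ± 0.52, which did not pass (limma adjusted p = 0.38).

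Between the genotypes the organ difference itself differed in 3 of 28583 features (0.0105%). AT5G52050 was the 1 named gene among them. In rpt2-3a its rosette fell by 1.75 and its root changed by -0.13, while in Col-0 its root fell by 1.23 and its rosette changed by -0.35. The organ differences were 1.62 and -0.88, which differ by 2.50 ± 0.37 (limma adjusted p = 0.013). The unnamed feature 13499857 rose by 0.76 in rpt2-3a roots and by 2.39 in Col-0 roots (difference between genotypes -2.04 ± 0.26, limma adjusted p = 0.0026), and the unnamed feature 13518392 fell by 1.74 in rpt2-3a rosettes and by 0.16 in Col-0 rosettes (2.46 ± 0.39, limma adjusted p = 0.026). For AT1G33760 the organ difference was 2.48 in rpt2-3a and 0.20 in Col-0, and the difference of 2.28 ± 0.63 did not pass (limma adjusted p = 0.27). AT2G43590 (2.17 ± 0.68, limma adjusted p = 0.38) and TBL26 (-1.27 ± 0.36, limma adjusted p = 0.29) did not pass either. The count of 3 became 30 without deficient-supply Col-0 rosette replicate 1, 10 without normal-supply rpt2-3a rosette replicate 3 and 6 without normal-supply Col-0 rosette replicate 3.

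**Figure D5:**
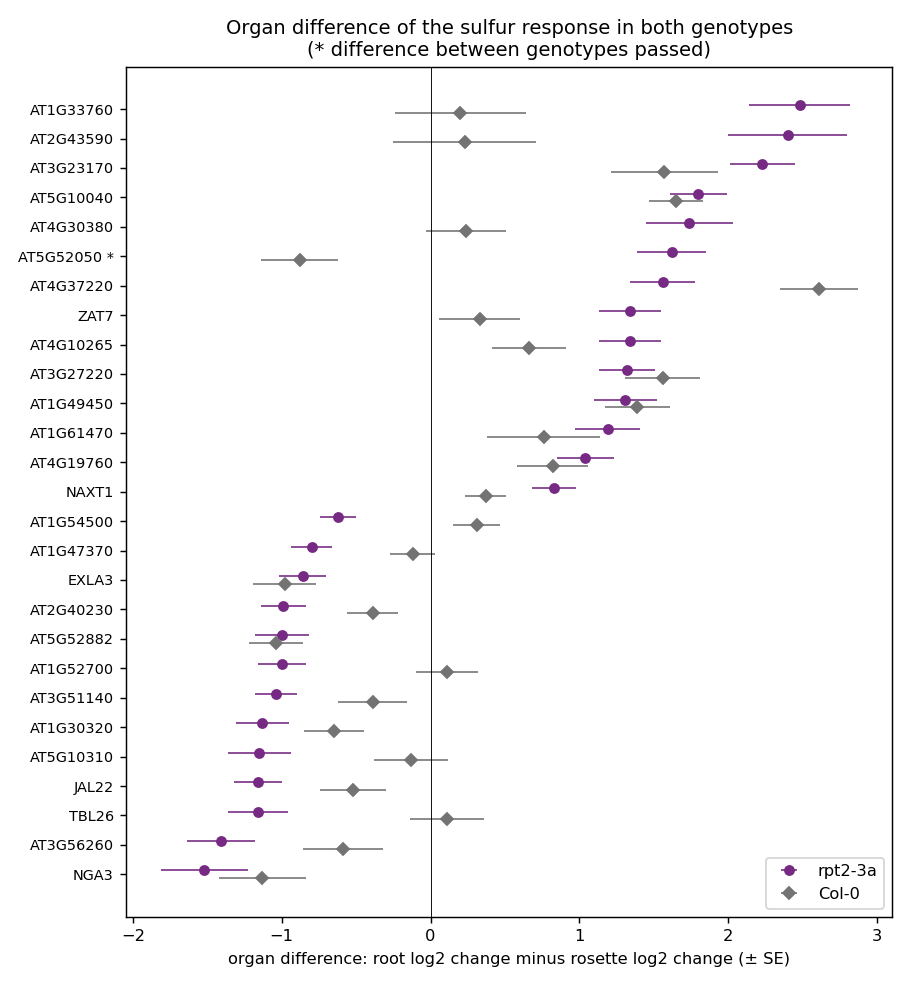
Root change minus rosette change on the log2 scale with SE (horizontal axis) in rpt2-3a (circles) and Col-0 (diamonds) for the 27 named genes that passed in rpt2-3a. AT5G52050, marked with an asterisk, lies at 1.62 in rpt2-3a and at -0.88 in Col-0. For AT5G10040, AT3G27220, AT5G52882, AT1G49450, EXLA3 and AT4G19760 the genotypes lie within 0.24 of each other.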

How the data were processed

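Per the labels' protocols, a WT terminal labelling kit was used for the 24 single-colour Affymetrix arrays. The authors deposited 1 value per feature and array to 2 decimals, read here as log2 values between 0.93 and 12.77. Transcriptome Analysis Console is named in the submitters' processing notes, while its version, the genome build, the log base, the summarisation and the normalization are not named in the sources used here. Folds assume base 2, and scale and centring stay unknown. Medians of the rpt2-3a arrays were 4.49 to 4.53 in roots and 4.06 to 4.1 in rosettes. Within groups r across features was 0.989 to 0.994, and no array copied another (97.8% or more of the values unequal in each pair). Arrays give no count depth, and their number limits the precision. No array batch was examined.

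The platform annotation gives 16746 features exactly 1 gene, 758 several and 11079 none. Of those with 1 gene 16601 matched RefSeq's table of TAIR10.1, which gave symbols. In all, 562 features share 158 profiles.

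The values were fitted without filter in limma 3.58.1 (R 4.3.3; lmFit, contrasts.fit, eBayes; two-sided Benjamini-Hochberg adjustment over all features) with 4 group means over the 12 rpt2-3a arrays (8 residual degrees of freedom). The genotype difference and the Col-0 values come from 8 group means over 24 arrays (16 residual degrees of freedom). Simulated data with 200 changed features served to test the fit. A pair of features with equal values keeps separate tests, with testing once as an alternative.

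Named were features with 1 gene that passed and whose supply groups were apart in an organ (the 12 highest, the 12 lowest and up to 6 per class), the sulfur markers and up to 4 members of each other list. The members and the 28 gene lists (1544 loci, 425 measured) were chosen with earlier results of these data known, so none is independent support. Lists were described by counts and medians.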

Additional observations from a re-analysis of the deposited data

Results flagged for a closer look

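For each gene below the sulfur responses of rpt2-3a roots and rosettes differed by the limma test, and the value is the root change minus the rosette change on the log2 scale. The root change was above the rosette change, whichever organ moved, in AT1G33760 (2.48), AT2G43590 (2.40), AT3G23170 (2.23), AT5G10040 (1.80), AT4G30380 (1.74), AT5G52050 (1.62), AT4G37220 (1.56), AT4G10265 (1.34), ZAT7 (1.34), AT3G27220 (1.32), AT1G49450 (1.31), AT1G61470 (1.19), AT4G19760 (1.04) and NAXT1 (0.83). It was below the rosette change in AT1G54500 (-0.62), AT1G47370 (-0.80), EXLA3 (-0.86), AT2G40230 (-0.99), AT1G52700 (-1.0), AT5G52882 (-1.0), AT3G51140 (-1.04, with an uncertain assignment of its features), AT1G30320 (-1.13), AT5G10310 (-1.15), TBL26 (-1.16), JAL22 (-1.16), AT3G56260 (-1.41) and NGA3 (-1.52).

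AT5G52050 also differed between genotypes, with an organ difference 2.50 higher in rpt2-3a than in Col-0 by the test of that difference.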

How the results depend on the processing

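The 92 calls of the organ difference became 293 with eBayes trend and robust and 220 with dim features left out, which tests 17224 features above a median of 4.29. Leaving out 1 array gave 31 (normal-supply root replicate 1) to 174 (normal-supply rosette replicate 3). The 86 root calls became 182 and 147 under the same 2 settings, 11 with the 6 root arrays of rpt2-3a alone and 41 with the 12 root arrays of both genotypes. Leaving out 1 array gave 29 (normal-supply root replicate 1) to 101, with 34 without deficient-supply root replicate 2. The 735 rosette calls became 337 with 6 and 444 with 12 rosette arrays, and leaving out 1 array gave 349 (deficient-supply rosette replicate 3) to 959. The 3 genotype differences became 26 with trend and robust, and leaving out 1 array of 24 gave 2 to 30. Fewer arrays enter the fits that left out 1 array or used 6 arrays, while the fits with 12 arrays of an organ hold as many as the main fit. Why the counts moved was not tested. The other settings, which include all 24 arrays (114 organ calls, 56 shared with the 92) and testing equal features once (68, a setting chosen after seeing the data), stayed within 1.5 times.

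Replicate numbers are shared between groups. Deviations of 18 same-numbered pairs correlated with r from -0.068 to 0.153, and 3 pairs were over 0.1. The 6 pairs of root and rosette at the same supply had r from 0.021 to 0.103. With 3 arrays per group these values cannot decide whether the numbers pair the samples. With the replicate block the organ calls were 120 (random block, correlation 0.051) or 108 (fixed term), the root calls 86 or 96, the rosette calls 760 or 798, and the genotype differences 3 in both. With the fixed term the organ calls of AT1G61470, AT1G54500, EXLA3 and AT5G10310 did not pass, and with the random block all 27 named genes passed. With all 24 arrays in the fit AT1G61470, AT4G19760, AT1G54500 and EXLA3 did not pass.

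Of the 27 named genes that passed, 10 passed in all 12 fits without 1 array (AT1G33760, AT3G23170, AT5G10040, AT5G52050, AT4G37220, AT4G10265, AT3G27220, AT2G40230, JAL22 and, with features of uncertain assignment, AT3G51140), and 21 in every other setting that tested them. Of the 12 fits, ZAT7 passed in 9, AT1G52700 in 8, AT2G43590 and AT1G30320 in 6, AT3G56260 in 5, AT4G30380, AT1G49450 and TBL26 in 4, AT1G47370 in 3, AT1G61470, NAXT1, AT5G52882 and NGA3 in 2, AT4G19760, EXLA3 and AT5G10310 in 1 and AT1G54500 in 0. With trend and robust, or with dim features left out, 6 wound list genes passed the organ difference instead of 3. Of 561 values of these genes under alternatives 402 stayed past the threshold, 159 did not and 0 changed sign.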

Other observations

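Features without a gene name made up 61 of the 92. The largest differences among them, given by number, were 13535775 and 13419041 with higher and 13412890 and 13418037 with lower root change. Feature 13535775 read 6.95, 6.87 and 6.72 in rpt2-3a rosettes at normal supply and 4.5, 4.67 and 4.81 at deficient supply, against 7.32 to 7.6 on all root arrays (organ difference 2.26 ± 0.16, limma adjusted p = 0.00011). Its rosette fall of 2.19 stood beside a Col-0 rosette change of -0.81 ± 0.25 (limma adjusted p = 0.21). Feature 13419041 rose in rpt2-3a roots by 1.79 and in Col-0 roots by 1.60. Feature 13418037 rose in rpt2-3a rosettes from 5.09 to 5.65 up to 6.42 to 6.57, with a Col-0 rosette change of 0.00 ± 0.14.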
